A study of Mus musculus with 6 samples.

Results

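The collagen genes were followed on arrays of C2C12 myotubes in which miR-382-5p had been silenced. They were chosen by name alone, as every gene whose symbol reads Col, a number, the letter a and a number, and which has a probe set (a group of probes read as 1 value) naming only that gene. This gave 42 collagen genes among 18820 genes so named, made up of 11 fibrillar collagens, 6 type IV collagens of the basement membrane and 25 others. Col20a1, Col5a1, Col6a5 and Col6a6 had more than 1 probe set, and for these the brightest probe set by its mean over the 6 arrays was used. Col9a3 and Col7a1 share their probe sets with other genes (Tcfl5 and Mir711) and were not analysed here.

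C2C12 cells are an established line of mouse myoblasts, which fuse and form contractile myotubes when serum is lowered. The 3 silenced arrays hold RNA of C2C12 myotubes that had received an LNA inhibitor of miR-382-5p 24 h earlier and were harvested on day 7 of differentiation. The 3 control arrays hold RNA of the same line, day and time after a negative control oligonucleotide. Both groups were differentiated in 2% horse serum, received 50 nM of oligonucleotide on day 6 and carry replicate numbers 1 to 3. No label says that same-group samples came from separate cultures, so each p-value speaks of how these samples scatter, and that scatter may be technical. All arrays come from 1 cell line, and such cultures generally keep some mononucleated cells beside the myotubes. Fewer cells of a type and less RNA per cell cannot be told apart in them.

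Collagens are matrix proteins whose chains wind into a triple helix. Fibrillar collagens (types I, II, III, V and XI, with XXIV and XXVII) pack into the tension-bearing fibrils of connective tissue, and type IV collagen forms the sheet-like network of basement membranes, including the one that wraps each muscle fibre. Type VI collagen forms beaded filaments next to that basement membrane, and mutations of its main chains cause muscle disease in humans. The chains of types I, III and VI in muscle come mainly from fibroblasts and other interstitial cells, while cultured myoblasts also make them.

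The silenced microRNA is shown with its seed, bases 2 to 8 from the 5′ end, in capitals, because the seed is the part that pairs with target transcripts. The miR-29 family, a well-known repressor of collagen transcripts, is set beside it because its members share 1 seed, which differs from that of miR-382-5p. The sequences are RefSeq's mature forms, 5′ to 3′, and positions are in build GRCm38.p6, at chr12:109733781-109733802 on the plus strand for miR-382-5p.
mmu-miR-382-5p: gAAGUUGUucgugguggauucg
mmu-miR-29a-3p: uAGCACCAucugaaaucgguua
mmu-miR-29b-3p: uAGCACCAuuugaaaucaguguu
mmu-miR-29c-3p: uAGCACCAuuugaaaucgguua
The arrays carry probe sets for precursor genes, not for these mature forms. Mir382 read 2.27, 2.28 and 1.99 on the silenced arrays, against 1.69, 1.99 and 1.76 on the control arrays, at percentile 3.22 of all genes, so this dim probe set does not check the silencing. Mir29a averaged 2.94 ± 0.13 in silenced and 3.04 ± 0.19 in control myotubes (log2, SD, n = 3 each), and Mir29b-1 averaged 1.66 ± 0.03 and 1.56 ± 0.04 in silenced and control myotubes. Both lay below the level required for testing. Sites for miR-382-5p in collagen transcripts were not analysed here.

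All values are log2 expression levels as deposited, and 1 unit is a doubling. A gene was tested if its 6-array mean exceeded the 40th percentile of all genes, a level of 3.87, which left 11292 genes. Of the 42 collagen genes, 34 were tested: all 11 fibrillar, 3 of 6 type IV (Col4a1, Col4a2 and Col4a5) and 20 of 25 others. Col4a3, Col4a4, Col4a6, Col6a4, Col8a2, Col9a1, Col17a1 and Col19a1 fell below. The level of a probe set also depends on its probes, so levels of different genes are not ranked against each other here.

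No collagen gene passed the test of silenced against control myotubes (0 of 34, limma, threshold 0.05 on the adjusted p), and 0% of all tested genes passed. The smallest adjusted p of a collagen was 0.871. When the replicate number was added as a block, 0 of 34 collagens passed and again 0% of all genes, with a smallest adjusted p of 0.549. At an unadjusted p under 0.05, 0 collagens passed in either fit, where 4.8% of all tested genes passed without the block and 10.3% with it. Of the 34, 18 collagens read higher and 16 lower in silenced myotubes. Their median difference was 0.0076 on the log2 scale, and over all tested genes it was 0.0089. The median size of the difference, without its sign, was 0.058 for collagens and 0.090 for all tested genes. The fibrillar, type IV and other collagens had medians of -0.020 (4 higher, 7 lower), 0.023 (2 higher, 1 lower) and 0.022 (12 higher, 8 lower). Single collagens ranged between -0.14 for Col5a2 and 0.21 for Col15a1. In 1 of the 34 tested collagens, Col18a1, all silenced arrays lay above all control arrays, as in 6.94% of all tested genes. In 0 of the 34 did they lie below, where 4.87% of all tested genes did.

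**Figure D1:**
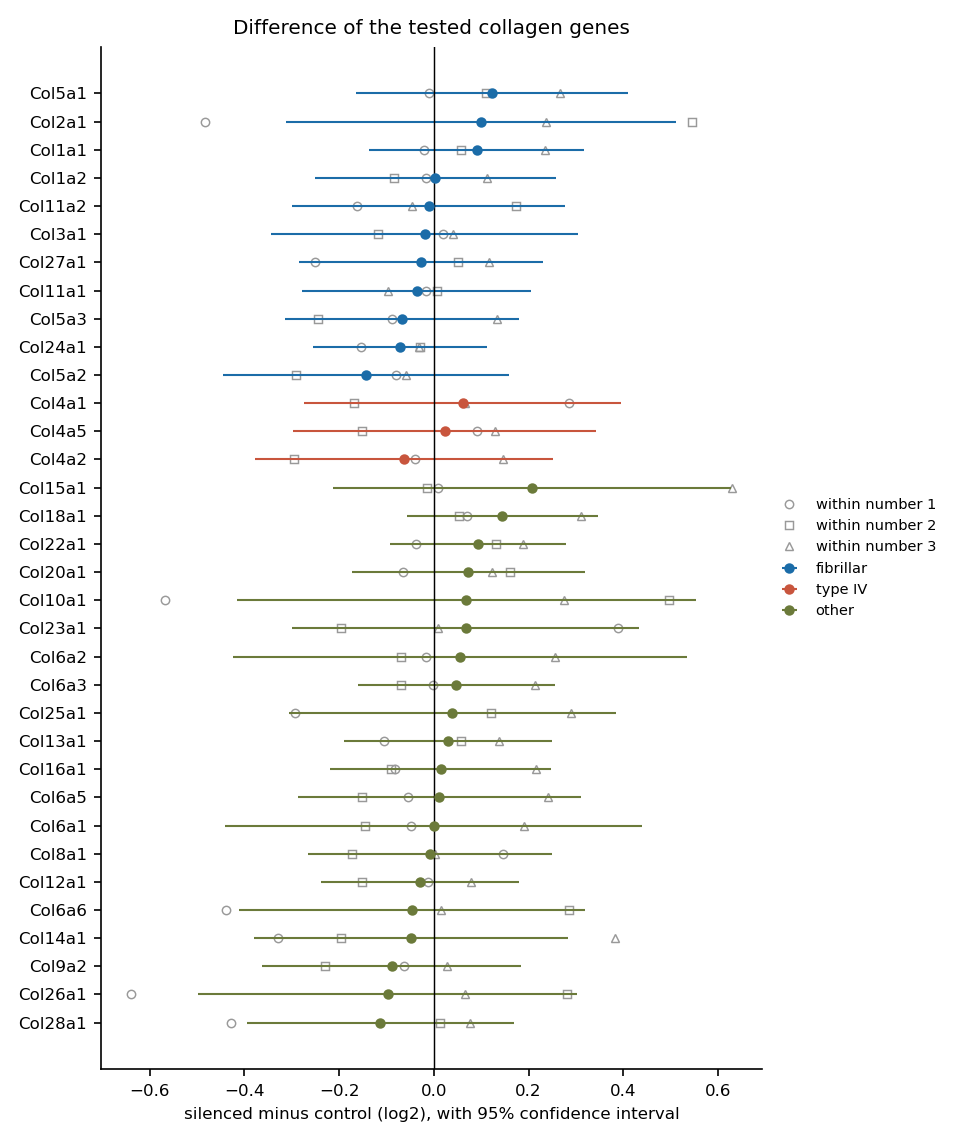
Difference between silenced and control myotubes (log2, horizontal axis) for each of the 34 tested collagen genes, with limma's 95% confidence interval as a bar. Open symbols give the difference within each replicate number. All 34 intervals include 0.

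The major fibrillar chains stood at nearly equal levels in both groups. Col1a1, which encodes the more frequent chain of type I collagen, read 10.68, 10.90 and 10.91 in silenced myotubes, against 10.70, 10.84 and 10.68 in control myotubes. Its partner chain Col1a2 read 10.88, 11.10 and 11.14 in silenced myotubes and 10.90, 11.18 and 11.02 in control myotubes. Col3a1, the chain of the thin type III fibrils, read 11.20, 11.45 and 11.55 in silenced myotubes and 11.18, 11.57 and 11.51 in control myotubes. In all of these the lowest silenced array carried number 1, the groups overlapped, and the differences were 0.09 (95% interval -0.14 to 0.32) for Col1a1, 0.0033 (-0.25 to 0.26) for Col1a2 and -0.02 (-0.34 to 0.31) for Col3a1. Their adjusted p-values were 0.898, 0.997 and 0.985.

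Type V and XI chains nucleate fibrils and set their width. Col5a1 read 8.13, 8.49 and 8.48 in silenced myotubes, against 8.14, 8.38 and 8.21 in control myotubes. Col5a2 read 8.41, 8.54 and 8.74 in silenced myotubes, against 8.49, 8.83 and 8.80 in control myotubes. These 2 chains of the same collagen leaned opposite ways. Col5a1 was 0.12 higher (95% interval -0.17 to 0.41, adjusted p = 0.893) and Col5a2 0.14 lower (-0.45 to 0.16, adjusted p = 0.884), both within overlapping groups. Col5a2 was lower in silenced myotubes within each of the 3 replicate numbers. The share of all tested genes with 1 sign within all 3 numbers was not counted. Col11a1, of type XI collagen, read 4.41, 4.60 and 4.60 in silenced myotubes, against 4.42, 4.59 and 4.70 in control myotubes. Col24a1, a minor fibrillar chain, read 4.13, 4.28 and 4.22 in silenced myotubes, against 4.29, 4.31 and 4.26 in control myotubes. Its difference of -0.07 (95% interval -0.25 to 0.11) also had 1 sign within all 3 numbers and did not pass the test (adjusted p = 0.900). The other fibrillar genes, Col2a1, Col5a3, Col11a2 and Col27a1, differed by 0.10, -0.07, -0.01 and -0.03.

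Col4a1 and Col4a2 encode the common chains of the basement membrane network and are neighbours on chromosome 8, where they start head to head. Col4a1 read 7.20, 6.67 and 6.81 in silenced myotubes, against 6.92, 6.84 and 6.74 in control myotubes. Col4a2 read 6.96, 6.60 and 6.76 in silenced myotubes, against 7.00, 6.90 and 6.62 in control myotubes. The silenced array numbered 1 was the highest of all for Col4a1 and the silenced array numbered 2 was the lowest for both genes. The differences were 0.06 (95% interval -0.27 to 0.40) for Col4a1 and -0.06 (-0.38 to 0.25) for Col4a2. Col4a5, an X-linked chain of tissue-restricted networks, read 4.92, 5.15 and 5.15 in silenced myotubes, against 4.83, 5.30 and 5.02 in control myotubes, a difference of 0.02 (95% interval -0.30 to 0.34). Adjusted p-values were 0.961, 0.955 and 0.983. Col4a3, Col4a4 and Col4a6 had means of 3.78, 3.79 and 3.17 in silenced myotubes and 3.85, 3.83 and 3.03 in control myotubes, below the level for testing.

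Type XV and XVIII collagens carry glycosaminoglycan chains and sit at the outer face of basement membranes. Col18a1, whose protein is the precursor of endostatin, read 6.78, 6.79 and 6.84 in silenced myotubes, against 6.71, 6.74 and 6.53 in control myotubes. Its groups did not overlap, but the lowest silenced and the highest control array were close. Col18a1 averaged 6.80 ± 0.03 in silenced and 6.66 ± 0.11 in control myotubes (SD, n = 3 each), a difference of 0.14 (95% interval -0.06 to 0.35, adjusted p = 0.871). This was the smallest p of any collagen in the fit without the block, 0.134 before adjustment in limma, while with the block Col5a2 had the smallest, 0.131, followed by Col18a1 at 0.137. Col15a1 read 4.65, 4.63 and 5.31 in silenced myotubes, against 4.64, 4.64 and 4.68 in control myotubes. Only the silenced array numbered 3 stood apart, and it alone made the difference of 0.21 (95% interval -0.21 to 0.63, adjusted p = 0.882), which was -0.02 without that array.

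The main type VI chains did not separate the groups either. Col6a1 read 9.90, 10.31 and 10.51 in silenced myotubes, against 9.95, 10.46 and 10.32 in control myotubes. Col6a2 read 8.50, 9.03 and 9.13 in silenced myotubes, against 8.52, 9.10 and 8.87 in control myotubes. Col6a3, the longest of the main type VI chains, read 9.12, 9.12 and 9.33 in silenced myotubes, against 9.12, 9.19 and 9.12 in control myotubes. For Col6a1 and Col6a2 the array numbered 1 was the lowest in both groups, by more than the groups differed. The differences were -0.00062 (95% interval -0.44 to 0.44) for Col6a1, 0.06 (-0.42 to 0.54) for Col6a2 and 0.05 (-0.16 to 0.25) for Col6a3, with adjusted p-values of 1.00, 0.971 and 0.944. Col6a5 and Col6a6 differed by 0.01 and -0.05, and Col6a4 was below the level for testing.

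**Figure D2:**
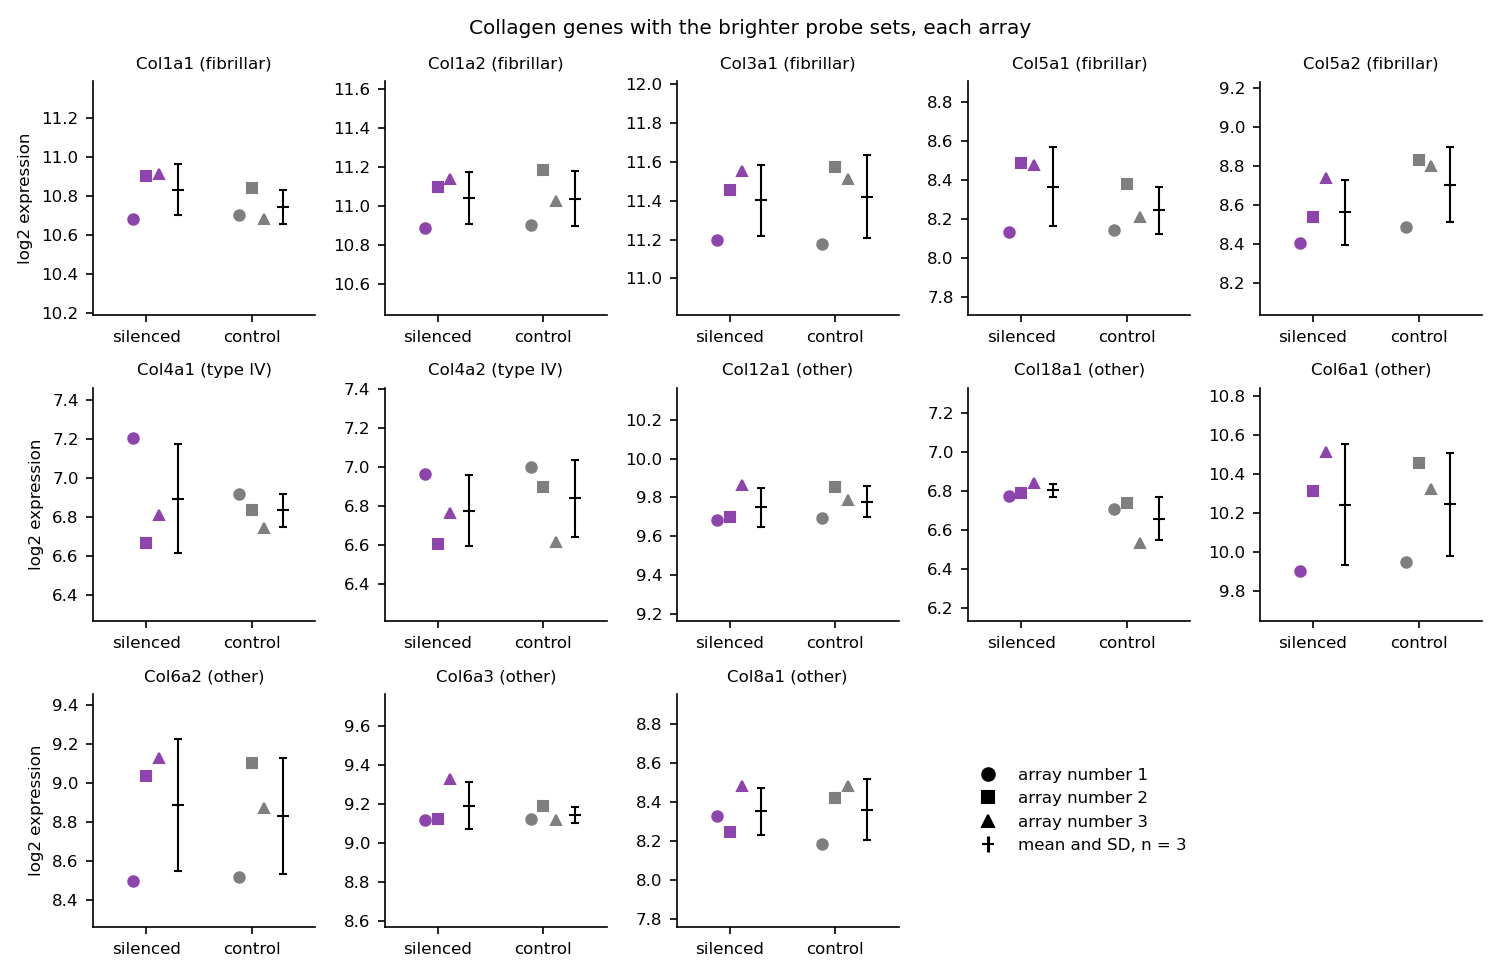
Log2 expression (vertical axis, the same span in every panel) of the 13 collagen genes with the brighter probe sets, on each silenced (purple) and control (grey) array, with mean and SD. Circles, squares and triangles are arrays numbered 1, 2 and 3. In Col3a1, Col6a1 and Col6a2 both circles lie below the other 4 arrays, and in Col4a1 and Col4a2 above them.

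Among the network-forming and fibril-associated collagens (FACITs, which decorate fibril surfaces), Col8a1 read 8.33, 8.24 and 8.48 in silenced myotubes, against 8.18, 8.42 and 8.48 in control myotubes. Col12a1, a FACIT of muscle and tendon matrix, read 9.68, 9.70 and 9.87 in silenced myotubes, against 9.70, 9.85 and 9.79 in control myotubes. The groups overlapped in both, and the differences were -0.0081 (95% interval -0.27 to 0.25) and -0.03 (-0.24 to 0.18). Col14a1, another FACIT, read 4.02, 4.12 and 4.52 in silenced myotubes and 4.35, 4.32 and 4.14 in control myotubes. Col16a1 read 4.70, 4.85 and 4.92 in silenced myotubes and 4.78, 4.94 and 4.70 in control myotubes. Both crossed over between replicate numbers, lower within numbers 1 and 2 and higher within number 3 in silenced myotubes. Col22a1, a FACIT of the muscle-tendon junction, read 4.45, 4.55 and 4.55 in silenced myotubes, against 4.49, 4.42 and 4.36 in control myotubes. Its difference of 0.09 (95% interval -0.09 to 0.28, adjusted p = 0.880) did not pass the test. Col9a2 read 4.73, 4.43 and 4.50 in silenced myotubes, against 4.79, 4.66 and 4.48 in control myotubes. Col28a1, which belongs to neither of these families, read 4.19, 4.25 and 4.40 in silenced myotubes, against 4.62, 4.24 and 4.32 in control myotubes. In Col28a1 the control array numbered 1 stood above the other 5 arrays, and the difference of -0.11 (adjusted p = 0.898) was 0.00099 without it. The remaining tested genes that are neither fibrillar nor type IV, among them the transmembrane collagens Col13a1, Col23a1 and Col25a1, were Col10a1, Col13a1, Col20a1, Col23a1, Col25a1 and Col26a1. They differed by between -0.10 for Col26a1 and 0.07 for Col20a1. Of the collagens below the level for testing, Col8a2 averaged 3.36 ± 0.18 in silenced and 3.73 ± 0.27 in control myotubes (SD, n = 3 each). All its silenced arrays lay below all its control arrays, and the share of such genes below the level was not counted. Col8a2 is named after its values were seen and was not tested.

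The intervals show what sizes these arrays leave room for. In the 13 collagens with the brighter probe sets (means of 6.73 and above, a split at the largest gap in means, made after the values were seen), differences lay between -0.14 and 0.14, and the 95% intervals lay between -0.45 and 0.54. In the other 21, with means up to 6.09, the differences lay between -0.11 and 0.21 and the intervals between -0.50 and 0.63. Differences of dim probe sets may be compressed towards 0 by the authors' processing, which was not tested here.

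The sign of the collagen difference varied with the replicate number. The median of silenced minus control over the 34 collagens was -0.051 within number 1, -0.049 within number 2 and 0.13 within number 3, while over all tested genes it was 0.031, -0.0081 and 0.0094. Fibrillar collagens had medians of -0.079, 0.0061 and 0.11 within numbers 1, 2 and 3, type IV collagens 0.092, -0.17 and 0.13, and the others -0.059, -0.043 and 0.19. Each of these values compares 1 silenced with 1 control array and has no replicate error. On the scale of a gene's own mean over the 6 arrays, the median fibrillar collagen stood at -0.15, 0.06 and 0.09 on the silenced arrays numbered 1, 2 and 3, against -0.08, 0.07 and -0.09 on the control arrays. The fibrillar median was thus below 0 on both arrays numbered 1, above it on both numbered 2, and on opposite sides on those numbered 3, and single genes departed from it. Col27a1, for example, had its highest value on the control array numbered 1.

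**Figure D3:**
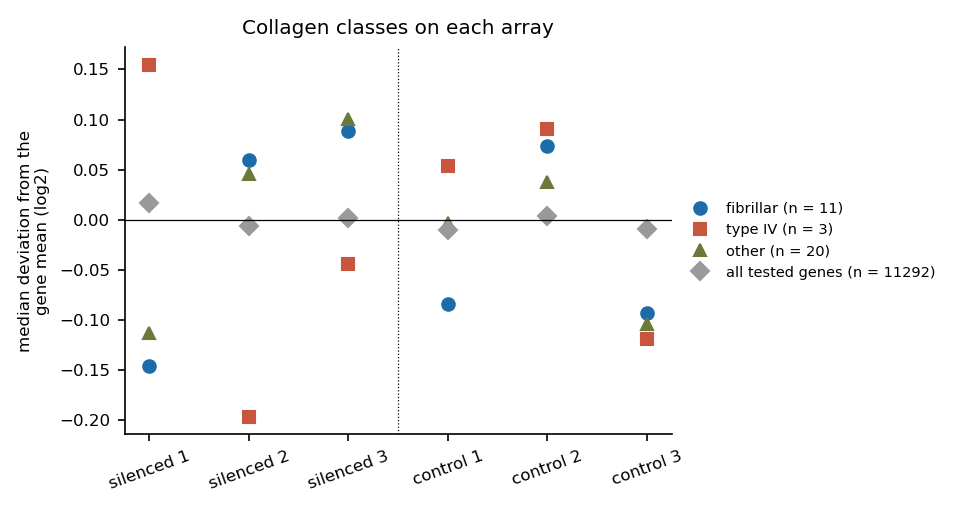
Median deviation from the gene's mean over 6 arrays (log2, vertical axis) on each array (horizontal axis), for fibrillar (11), type IV (3) and other (20) tested collagens and for all 11292 tested genes. The medians of all tested genes stay between -0.01 and 0.02, and those of the collagen classes reach from -0.20 to 0.15.

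The replicate numbers were compared as 3 sets of 2 arrays, each with 1 silenced and 1 control array, in a fit that keeps the group as a term. No collagen passed the F test over the 3 numbers (0 of 34, limma adjusted p, threshold 0.05), where 3.12% of all tested genes passed. At an unadjusted p under 0.05 there were 5 collagens, Col6a2, Col6a1, Col3a1, Col4a5 and Col5a2, or 5 of 34 where 20.4% of all tested genes passed, so the collagens' share is no larger than the background. The smallest adjusted p-values were 0.0737 for Col6a2, 0.0945 for Col6a1, 0.144 for Col3a1, 0.218 for Col4a5, 0.223 for Col5a2 and 0.278 for Col5a1.

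Of all tested collagens, the type VI chains Col6a2 and Col6a1 had the largest differences between numbers. Col6a2 read 8.50 in silenced and 8.52 in control myotubes on the arrays numbered 1, against 9.03 and 9.10 on those numbered 2 and 9.13 and 8.87 on those numbered 3. It was lower in number 1 by 0.56 on the log2 scale than in number 2 and by 0.49 than in number 3, with 95% intervals of the signed differences from -0.83 to -0.29 and from -0.76 to -0.22. Col6a1 averaged 9.93 on arrays numbered 1, against 10.39 and 10.42 on those numbered 2 and 3, differences of -0.46 (95% interval -0.73 to -0.19) and -0.49 (-0.76 to -0.23). Their adjusted p-values were 0.0598 and 0.0867 for number 1 against 2 and 0.0656 and 0.0639 for number 1 against 3 (limma), so neither passed. The other main chain, Col6a3, differed by only -0.04 (95% interval -0.29 to 0.22) and -0.10 (-0.35 to 0.15), and both intervals include 0. Whether Col6a3 differed from its partners was not tested.

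For Col6a2, Col6a1 and Col3a1, the genes with the smallest p in this test, the 250 bases before the annotated RefSeq start in build GRCm38.p6 are shown, 5′ to 3′ along the gene's strand, with matches to 3 promoter words in capitals. The words are TATAAA of the TATA box, CCAAT of the CCAAT box and, for the GC box, the letters GGGCGG. They were searched on both strands, and none contains another. The table holds 2 windows for Col6a2, and the one farthest upstream is shown.
Col6a2 at chr10:76623631-76623880 on the minus strand: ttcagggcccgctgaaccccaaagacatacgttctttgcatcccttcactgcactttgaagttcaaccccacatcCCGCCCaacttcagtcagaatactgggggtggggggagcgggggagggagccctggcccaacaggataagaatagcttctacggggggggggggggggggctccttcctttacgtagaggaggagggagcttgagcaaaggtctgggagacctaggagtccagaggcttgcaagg
Col6a1 at chr10:76726045-76726294 on the minus strand: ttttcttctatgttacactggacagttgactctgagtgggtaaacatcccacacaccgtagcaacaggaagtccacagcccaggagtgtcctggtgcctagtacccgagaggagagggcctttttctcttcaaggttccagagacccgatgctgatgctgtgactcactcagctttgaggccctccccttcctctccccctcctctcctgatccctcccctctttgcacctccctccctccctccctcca
Col3a1 at chr1:45311288-45311537 on the plus strand: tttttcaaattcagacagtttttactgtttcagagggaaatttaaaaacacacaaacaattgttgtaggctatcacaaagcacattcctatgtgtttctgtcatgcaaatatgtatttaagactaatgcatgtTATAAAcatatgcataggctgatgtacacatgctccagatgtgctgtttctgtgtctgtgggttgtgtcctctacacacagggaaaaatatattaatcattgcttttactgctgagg
The Col6a2 window holds 1 GC box, on the opposite strand, the Col3a1 window 1 TATAAA, and the Col6a1 window no match to the 3 words. Col6a2 and Col6a1 lie on the same strand of chromosome 10 and share no promoter in these windows. Of all 27025 genes in the table, 14.3% hold TATAAA, 37.5% CCAAT and 35.4% the GC box in such a window, counting any window of a gene. The table holds 34 of the 42 collagen genes (8 fibrillar, 5 type IV and 21 others, not the same genes as the 34 tested), and of these the counts were 5, 12 and 20. A match is a run of letters and not a shown site.

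Fibrillar collagens leaned the same way. All 11 averaged lower on arrays numbered 1 than on those numbered 2, with a median of -0.18, where 5439 of all 11292 tested genes were lower, with a median of 0.0079. Against number 3, 8 of 11 averaged lower, with a median of -0.11, where 5493 of all tested genes were lower, with a median of 0.0069. These contrasts share the number 1 arrays and are not independent. Col3a1 averaged 11.19 on arrays numbered 1, against 11.51 and 11.53 on those numbered 2 and 3, differences of -0.33 (95% interval -0.55 to -0.10) and -0.34 (-0.57 to -0.12). Col5a2 differed by -0.24 and -0.32, Col5a1 by -0.30 and -0.20, Col1a2 by -0.25 and -0.19, and Col1a1 by -0.18 and -0.11 in the contrasts with numbers 2 and 3. None passed after adjustment, the smallest adjusted p among fibrillar collagens being 0.106.

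The type IV chains divided. Col4a1 averaged 7.06 on arrays numbered 1, against 6.75 and 6.78 on those numbered 2 and 3, differences of 0.31 (95% interval 0.0066 to 0.61) and 0.28 (-0.02 to 0.58). Its neighbour Col4a2 differed by 0.23 (-0.07 to 0.53) and 0.29 (-0.0066 to 0.59). Col4a5 went the other way, by -0.35 (-0.61 to -0.10) against number 2 and -0.21 (-0.46 to 0.05) against number 3. Adjusted p-values lay between 0.131 and 0.344 for these 6 contrasts, so none was called. Of the others, Col9a2, a FACIT of cartilage, differed by 0.21 (-0.04 to 0.45) and 0.27 (0.02 to 0.51), with adjusted p-values of 0.297 and 0.206.

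**Figure D4:**
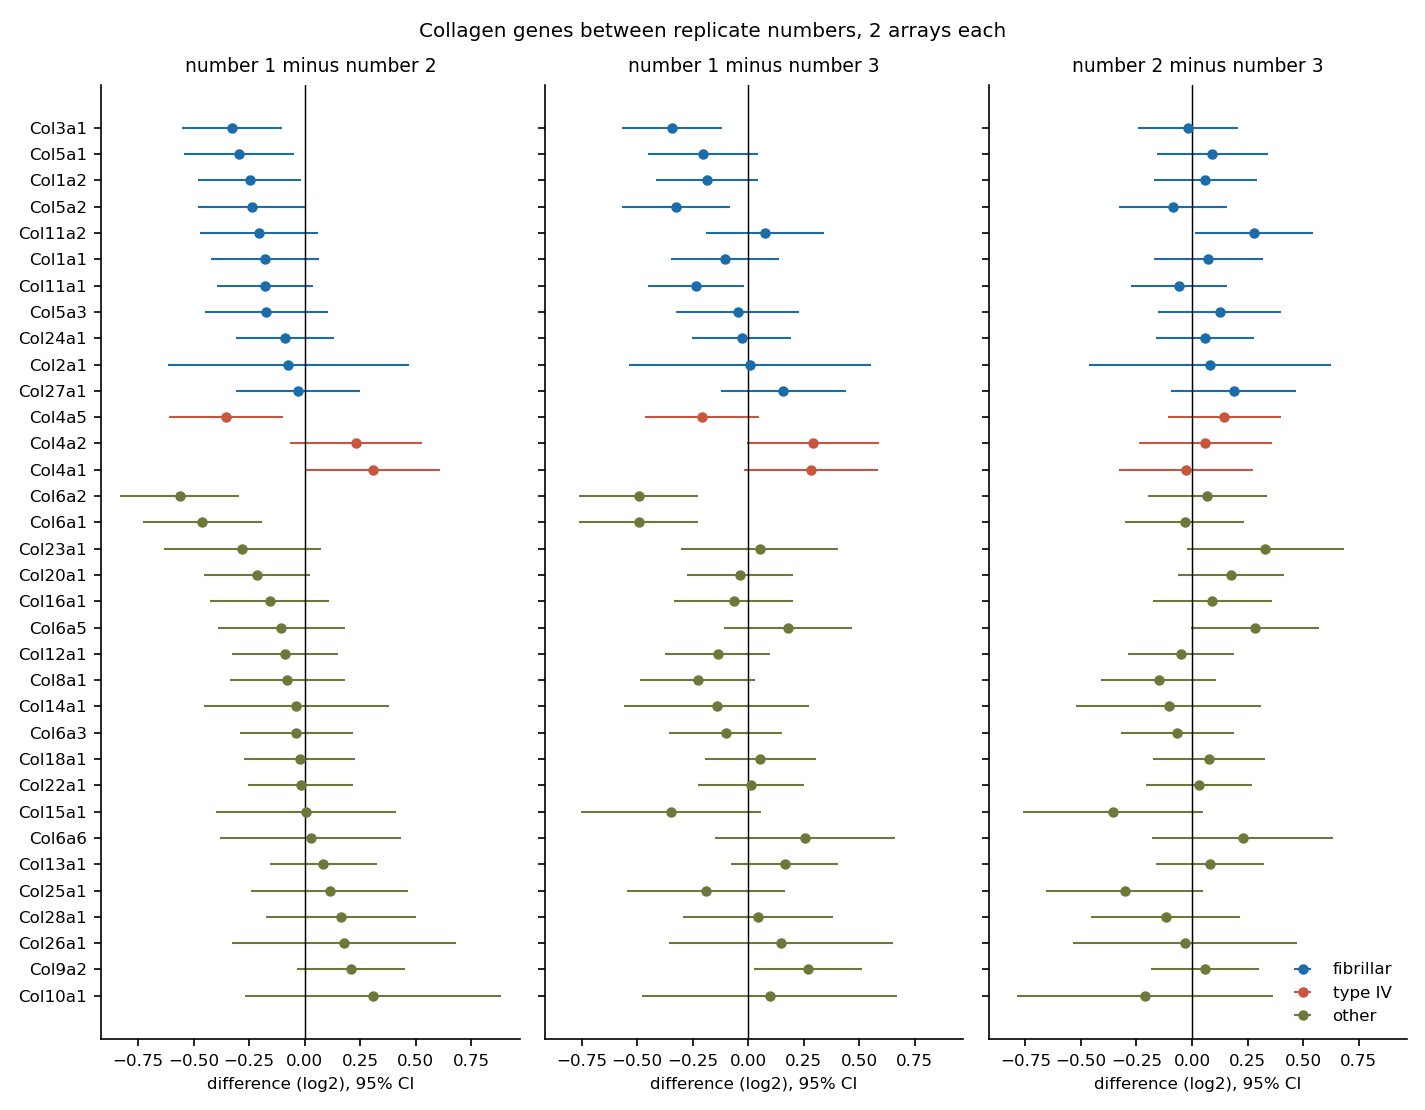
Differences between replicate numbers (log2, horizontal axes) for the 34 tested collagen genes, with limma's 95% confidence intervals, for number 1 minus 2, number 1 minus 3 and number 2 minus 3. All 11 fibrillar genes lie left of 0 in the first panel, and Col6a2 and Col6a1 lie farthest left in both contrasts with number 1.

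Pairwise, 0 of 34 collagens passed in number 1 against 2, where 2.75% of all tested genes passed, 0 in number 1 against 3, where 4.47% passed, and 0 in number 2 against 3, where 0% passed. By position, both arrays numbered 1 lay below the other 4 in 9 collagens (5 fibrillar: Col1a2, Col3a1, Col5a1, Col5a2 and Col11a1, with Col4a5, Col6a1, Col6a2 and Col12a1), or 9 of 34 where the background is 15.3%. They lay above in 4 (Col4a1, Col4a2, Col9a2 and Col13a1), where the background is 16%. Both arrays numbered 2 lay above the other 4 in 4 collagens and below in 0, where 7.79% and 7.08% of all tested genes did so. Both arrays numbered 3 lay above in 3 and below in 2, where 6.11% and 7.57% did so.

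Whether any collagen was called between numbers depended on the settings. With genes above the 60th percentile only, 3 of 13 collagens passed the F test, Col6a2 (adjusted p = 0.0111), Col6a1 (0.0178) and Col3a1 (0.0453), where 11.3% of all genes tested passed. With a variance trend over intensity in limma's eBayes, the same 3 passed of 34 (adjusted p = 0.00282, 0.00329 and 0.00951), where 9.65% of all genes passed. Without the control array numbered 1, Col6a2 alone passed (adjusted p = 0.0371), where 9.48% of all genes passed. Without the silenced array numbered 1, Col10a1, Col26a1 and Col23a1 passed, where 7.83% passed. In these last fits number 1 is a single array, assumed to vary like the others, and a gene's own spread comes from numbers 2 and 3 alone.

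Enzymes and partners of the collagen pathway were counted from lists written down for this purpose, with single-gene probe sets above the level for testing. In silenced against control myotubes 0 genes of these lists passed limma's adjusted threshold, with or without the block, and Lama2, Timp2 and Tgfb2 alone had an unadjusted p under 0.05 without it. These are 3 of 84 tested genes over 7 lists, where 4.8% of all tested genes passed, and with the block there were 11 of 84, where 10.3% passed. For synthesis and folding, 19 of 24 listed genes were tested, with 9 higher and 10 lower and a median of -0.014. The smallest p-values there belonged to Plod2, a lysyl hydroxylase, at -0.18, and Sec23a, a coat protein of procollagen export, at -0.11. For processing and cross-linking, 13 of 16 were tested, 9 higher and 4 lower, with a median of 0.075. By p-value the first were the cross-linking enzyme Loxl1 at 0.14 and the protease Furin at 0.12. For fibril partners, 8 of 10 were tested, 5 higher and 3 lower, with a median of 0.047. Postn, a matricellular protein, was at -0.24 and Lum, a fibril-binding proteoglycan, at -0.60. The silenced mean of Lum was 3.92, close to the level for testing of 3.87.

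Basement membrane components other than collagen had the largest median of these lists. Of 15 listed, 12 were tested, 10 higher and 2 lower, with a median of 0.13. Lama2, the laminin chain of the muscle basement membrane, read 7.82, 7.95 and 7.86 in silenced myotubes, against 7.64, 7.63 and 7.63 in control myotubes. All its silenced arrays lay above all its control arrays, as in 6.94% of all tested genes. The difference of 0.24 did not pass after adjustment (limma adjusted p = 0.871). Hspg2, which encodes perlecan, was at 0.14. Of 13 collagen receptors, 10 were tested, 6 higher and 4 lower, with a median of 0.12. The smallest p-values there belonged to Antxr1 at 0.18 and Ddr1 at 0.19. Of 16 genes of collagen breakdown, 7 were tested, 5 higher and 2 lower, with a median of 0.039. Timp2, an inhibitor of matrix metalloproteinases, was at 0.21 and Timp1 at -0.14. Of 18 TGF-beta ligands and readouts, 15 were tested, 11 higher and 4 lower, with a median of 0.064. Tgfb2 was at 0.24 and Smad3 at 0.26. All of these lists stand beside a median of 0.0089 and 52.7% higher over all tested genes.

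Between replicate numbers, several matrix genes that are not collagens passed the F test (limma adjusted p, threshold 0.05, 3.12% of all tested genes). The fibril proteoglycan Dcn averaged lower on arrays numbered 1 by 0.51 than on those numbered 2 and by 0.66 than on those numbered 3 (signed differences -0.51 and -0.66, adjusted p = 0.0368). For Lum the differences were -0.52 and -1.21 (adjusted p = 0.0320). Lum read 3.53, 3.81 and 4.42 on silenced arrays and 3.76, 4.53 and 5.29 on control arrays. Both arrays numbered 1 thus lay below the level for testing of 3.87, and Lum was tested only through its higher arrays. The collagen receptors Itga11, at -0.57 and -0.74 (adjusted p = 0.0256), and Ddr2, at -0.68 and -0.55 (adjusted p = 0.0293), also passed. So did the laminin chain Lamb3, at -0.64 and -0.49 (adjusted p = 0.0345), and the latent TGF-beta binding protein Ltbp2, at -0.26 and -0.68 (adjusted p = 0.0389). Ccn2, a target of TGF-beta signalling, went the other way, at 0.36 and 0.75 (adjusted p = 0.0371). The calls among fibril partners are Dcn and Lum, of which Lum was tested only through its higher arrays. By list, the F test called 2 of 8 fibril partners and 1 of 12 basement membrane components. It also called 2 of 10 receptors and 2 of 15 TGF-beta genes. It called 0 of 19 genes of synthesis and folding (smallest p in P4ha2 and P4ha3, prolyl hydroxylase chains, adjusted p = 0.134 and 0.146), 0 of 13 of processing (Loxl4 0.0569, Tgm2 0.152) and 0 of 7 of breakdown (Mmp2 0.0737, Timp3 0.0909). At an unadjusted p under 0.05 each of these 3 lists had 3 genes, and the fibril partners, basement membrane components, receptors and TGF-beta genes had 4, 4, 4 and 5. Over the 7 lists this made 26 of 84 tested genes, where 20.4% of all tested genes passed. All 7 lists had negative medians in both contrasts with number 1, where all tested genes had medians of 0.0079 and 0.0069. The list medians reached -0.29 in number 1 minus 2 for fibril partners and receptors. The smallest in size was -0.0059, in number 1 minus 3 for processing and cross-linking.

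**Figure D5:**
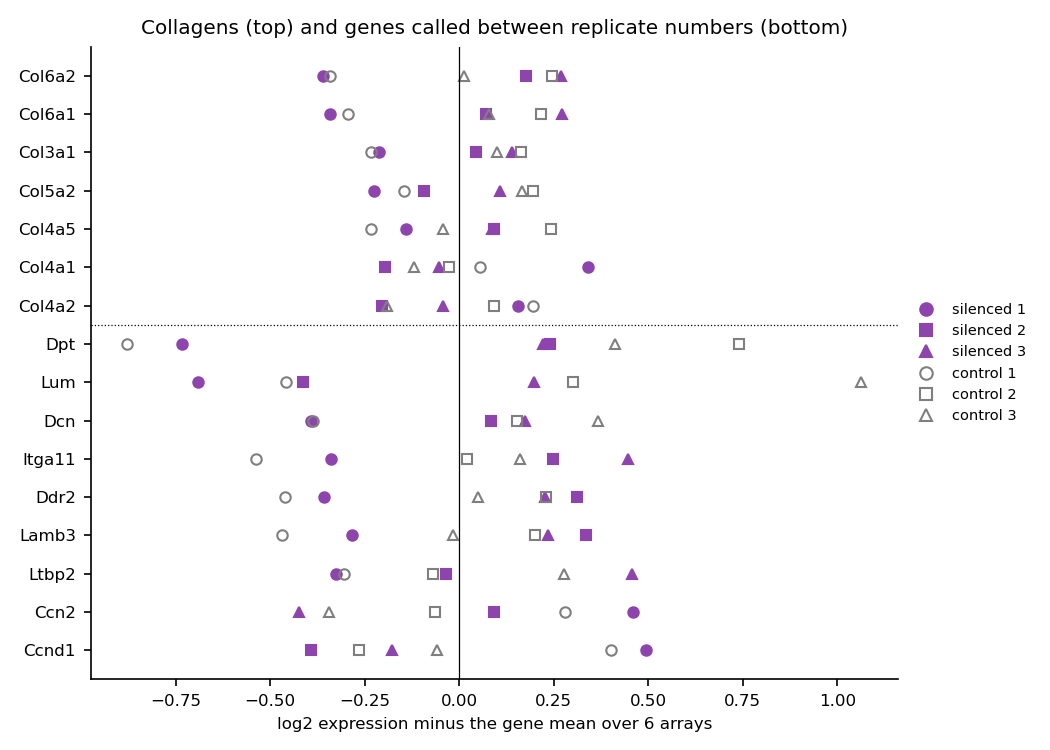
Log2 expression on each array minus the gene's mean over 6 arrays (horizontal axis) for 7 collagens (above the dotted line) and for 9 listed genes called between replicate numbers (below it). Filled symbols are silenced and open symbols control arrays, and circles are arrays numbered 1. Both circles lie left of 0 in Col6a2, Col6a1, Col3a1, Dpt, Lum and Dcn, and right of 0 in Col4a1, Col4a2, Ccn2 and Ccnd1.

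Fibroblast markers, like the fibrillar collagens and the 7 lists above, had negative medians in both contrasts with number 1. Of 9 listed, 7 were tested and 3 passed the F test (Dcn, Lum and Dpt), where 3.12% of all tested genes did. Of these, Lum was tested only through its higher arrays. With Lum included, 6 had an unadjusted p under 0.05, where 20.4% did. Dcn and Lum are the same genes already counted among the fibril partners, so the fibroblast list is not a separate observation for them. Dpt, which encodes the matrix protein dermatopontin, differed by -1.30 and -1.12 (limma adjusted p = 0.0247), and the medians of the list were -0.47 for number 1 minus 2 and -0.41 for number 1 minus 3. The mean level of the whole list ranged between 5.89 and 6.26 on silenced arrays and between 5.80 and 6.33 on control arrays. Of 7 markers of undifferentiated myoblasts, all were tested and 1 passed, the cyclin gene Ccnd1, at 0.78 and 0.57 (adjusted p = 0.0298). Myf5 also had an unadjusted p under 0.05, as 20.4% of all tested genes did, and went the other way, at -0.31 and -0.13. The medians of this myoblast list were -0.097 for number 1 minus 2 and 0.020 for number 1 minus 3. All 12 myotube markers were tested and 0 passed, with 2 at an unadjusted p under 0.05 and the smallest p in Ttn and Myog (adjusted p = 0.130 and 0.159). Their mean level ranged between 10.21 and 10.38 on silenced and between 10.10 and 10.21 on control arrays, so the cultures expressed the genes that their label names. Of 6 endothelial and 5 macrophage markers, 1 each was tested, and the lists averaged 2.77 to 2.82 and 3.21 to 3.29 on silenced arrays, against 2.71 to 2.91 and 3.05 to 3.34 on control arrays. Of 9 chondrocyte and osteoblast markers, 2 were tested, Sox9 and Bglap, and 0 passed (adjusted p = 0.198 and 0.146, both with an unadjusted p under 0.05, as in 20.4% of all tested genes). The part of the fibroblast markers in the collagen values was not tested.

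In silenced against control myotubes 0 of these markers passed limma's adjusted threshold either. The adult and embryonic myosin genes Myh1 and Myh3 were at 0.36 and 0.26, 2 of the 4 myotube markers, of 12 tested, with an unadjusted p under 0.05, where 4.8% of all tested genes had one. Among the 7 myoblast markers 2 had such a p, Id3 at -0.25 and Pax7 at 0.21. Of the fibroblast markers none had, the smallest p belonging to Lum at -0.60, a gene tested only through its higher arrays, and Pdgfrb at 0.20. Sox9 and Bglap were at 0.19 and -0.31, the macrophage gene Cd68 at 0.36 and the endothelial gene Vwf at 0.03, all with an unadjusted p above 0.05. With the replicate block, 4 of 12 tested myotube markers and 3 of 7 myoblast markers had an unadjusted p under 0.05 in limma. So did 2 of 7 fibroblast markers (Lum and Pdgfrb), both tested chondrocyte and osteoblast markers (Sox9 and Bglap) and the macrophage gene Cd68. The endothelial gene Vwf did not. Of all tested genes 10.3% had such a p, and 0 markers passed the adjusted threshold.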

How the data were processed

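The deposited values are log2 expression levels of 35556 probe sets on 6 arrays. The authors used RMA (background correction, quantile normalization and summary of probes), per the submitters' processing notes, and the sources used here give neither its version nor the probe set definition. The values were used as deposited. The platform annotation gave the gene names, and 21218 probe sets named 1 gene. The 42 collagen genes matched RefSeq (GRCm38.p6), and the annotation was used for names and neighbours. Silenced and control arrays, grouped by their labels, were compared by limma (version 3.58.1, R 4.3.3, functions lmFit and eBayes, 2-sided), with Benjamini-Hochberg adjustment over all 11292 tested genes. Replicate numbers were compared with an F test and 3 pairwise contrasts in a model with group and number. Differences are silenced minus control, or the lower number minus the higher. The code was tested on simulated data with 200 changed genes.

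The replicate numbers occur in both groups, and deviations from the group means correlated at 0.55, 0.35 and 0.42 between same-numbered arrays. This pairing rests on the data and not on a label, so the fit without the number as a block came first. The 6 arrays correlated between 0.985 and 0.995 over tested genes. Their median levels lay between 4.21 and 4.27. Detection calls were not used. Precision is limited by the number of arrays.

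Members follow the name rule given above, and they and the lists were taken up with earlier results of these data known. Values on every array are given for a panel of collagens, for the 8 with the smallest p between the groups and for the 8 with the smallest p between numbers. Of the other lists, the called genes or else those with the smallest p are named. Alternatives changed the filter, the normalization, the probe set rule, the block, the variance trend and the classes, and left out arrays.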

Additional observations from a re-analysis of the deposited data

How the results depend on the processing

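In silenced against control myotubes, 0 collagens passed under all 15 alternatives tried, the lowest adjusted p being 0.459, with both arrays numbered 1 left out. With the replicate block the count was again 0 and the paired fit changed no call. The median differences of the 4 sets moved by less than the SD of their medians within the 3 replicate numbers, under every alternative run. That SD comes from the same arrays, so this comparison cannot show that the medians are stable. They lay between -0.047 and 0.063 for all collagens, between -0.066 and 0.048 for fibrillar, between -0.094 and 0.11 for type IV and between -0.061 and 0.093 for other collagens, so their signs are not fixed. Of the 34 collagens, 7 kept their sign in every alternative that tested them (Col18a1, Col1a1, Col22a1, Col24a1, Col5a1, Col5a2 and Col9a2) and 27 did not. The share of all tested genes that kept their sign was not counted, so the count does not set collagens apart. The filters, the block and the variance trend leave a gene's difference unchanged, so they could not turn a sign. The stricter filter tested 13 collagens, and Col22a1, Col24a1 and Col9a2 were not among them. Col15a1 turned to -0.0030 with both arrays numbered 3 left out and ranged between -0.015 and 0.32 when 1 array was left out. Col28a1 turned to 0.046 with both arrays numbered 1 left out and ranged between -0.19 and 0.00099 when 1 array was left out. Collagens called between replicate numbers were 3 with the stricter filter, which tests fewer genes, 3 with the intensity trend, and 0 to 3 when 1 array was left out, which leaves its number with a single array. For the other settings of that test the count was 0, and the cause of the changes was not tested.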
